A study of Rattus norvegicus with 6 samples.

Results

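The genes described here encode the matrix metalloproteinases (Mmp), the membrane-anchored ADAM proteases (Adam), the secreted ADAMTS proteases (Adamts), the ADAMTS-like proteins (Adamtsl) and the tissue inhibitors of metalloproteinases (Timp). They were chosen by symbol alone, as every row of the count files whose name starts with one of these 5 stems followed by a digit, which gave 61 of 17327 genes. They comprised 21 Mmp, 20 Adam, 13 Adamts, 3 Adamtsl and 4 Timp genes. The cells were primary Schwann cells, the glia of peripheral nerve, from sciatic nerves of adult Wistar rats. After 18 h of starvation, 3 samples received 10 nM soluble NRG1β1 (NRG1) for 6 h and 3 mock samples received only the buffer in which the ligand was dissolved. Mock and NRG1 cells alike were kept during starvation and stimulation in medium with 2% serum and 10 μM forskolin, which elevates cAMP in cells. Each of the 3 cultures was an independent cell preparation that gave 1 mock and 1 NRG1 sample with the same number. The cells were grown without axons, so that the measurements refer to cultures in a dish. Bulk counts cannot be assigned to Schwann cells alone, and fibroblast markers were also counted, as given below. RNA sequencing counts per gene were compared between NRG1 and mock within cultures.

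Metalloproteinases cut the extracellular matrix and the outer parts of membrane proteins, and most carry a zinc ion in the catalytic site. Secreted and membrane-type Mmp enzymes degrade collagens and basement membrane, ADAM proteases shed growth factors, receptors and adhesion molecules from the cell surface, and ADAMTS enzymes cut proteoglycans or trim procollagen. ADAMTS-like proteins lack the protease domain and sit in the matrix, and the Timp proteins bind and block the enzymes. In nerve, these proteins are known for opening the matrix and the blood-nerve barrier after injury and for processing NRG1 itself, which is released from its membrane-bound precursors by sheddases such as Adam10, Adam17 and Adam19.

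Counts on genes ranged from 6821590 to 15475018 per sample, and the 61 genes took between 0.536% and 0.902% of them. Levels are given as CPM, the counts of a gene scaled to the normalised total of counts on genes in each library (parts per 1000000). A level of 3 counts, taken as the lowest that the depth can show, was 0.194 to 0.444 CPM, and these limits cover counting error only. The Schwann cell markers Sox10, Erbb3 and Ngfr were counted in every sample, and the macrophage genes Ptprc, C1qa and C1qb and the endothelial genes Pecam1 and Cdh5 were at 0 in all 6. Other genes of these 2 lists were counted at low levels in every sample, the macrophage genes Cd68 with 15 to 57 and Csf1r with 4 to 13 counts and the endothelial genes Tek with 44 to 136 and Egfl7 with 32 to 93 counts. The macrophage gene Cd14 had 58 and 40 counts in the samples of culture 1 and 2 to 5 in the others. The summed level was 3.23 to 10.1 CPM for the 8 macrophage genes and 13.1 to 19.8 CPM for the 6 endothelial genes. Culture 1 stood apart from cultures 2 and 3. Of the 8 fibroblast markers looked at, all except Fbln1 were higher in both samples of culture 1 than in every other sample, and Thy1, Dcn and Lum were at 0 in all samples of cultures 2 and 3. The summed fibroblast level was 53456 and 57802 CPM in the 2 samples of culture 1 and between 13914 and 22721 CPM in the other 4, most of it from the collagens. Sox10 was at 387, 1090.4 and 1174 CPM in mock and 468, 1062 and 1257 CPM in NRG1 samples, Erbb3 at 414, 1019 and 903 CPM in mock and 346, 716 and 988 CPM in NRG1 samples and Ngfr at 1013, 2511 and 2685 CPM in mock and 1274, 2302 and 2733 CPM in NRG1 samples, each lowest in the samples of culture 1. In bulk RNA, more cells of a type and more RNA per cell of that type cannot be told apart.

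Of the 61 genes, 12 had no count in any sample. They were Mmp1, Mmp20, Mmp21, Mmp28, Adamts18, Adam3a, Adam5, Adam6, Adam7, Adam26a, Adam28 and Adam34, several of which are known from testis. A further 9 never exceeded 3 counts, among them Mmp7 (matrilysin), Mmp8 (neutrophil collagenase), Mmp9 (gelatinase B), Mmp12 (macrophage elastase) and Timp4. Mmp9, often studied after nerve injury, had 3, 0 and 0 counts in mock samples 1, 2 and 3 and 1, 1 and 0 counts in NRG1 samples 1, 2 and 3. Another 4 had counts almost exclusively in culture 1, and 3 more (Adam4, Adamts3 and Mmp23) had low counts. The remaining 33 passed the filter on low counts and were tested, together with all other genes, by edgeR's quasi-likelihood test with the culture as a block. The rule asks for about 10 counts in at least 3 samples, so that a gene counted only in the 2 samples of a single culture could not pass.

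NRG1 lowered 3 of the 33 tested genes at an adjusted p of at most 0.01, namely Adamts15, Adamtsl3 and Timp3, against 5.51% of all 9740 genes tested. It raised none of the 33 at that level, against 6.31% of all genes. At an unadjusted p under 0.05, 15 of the 33 differed, beside 35.7% of all genes. DESeq2 called 1 of the 33 higher, Timp1, and 4 lower, the same 3 and Mmp15, beside 10.5% of all genes in either direction. Adamts15 and Adamtsl3 also passed the second threshold of the study, an absolute log2 fold change over 1, as did 1.91% of all genes on the lower side. On the higher side none of the 33 did, against 1.56% of all genes. Of the 33, 10 had an adjusted p of at most 0.05 (30.3%), beside 23.2% of all genes. The median log2 fold change of the 33 was -0.30, against -0.03 over all tested genes. Of the 33, 25 had a value below 0, but the share of all genes below 0 was not computed, so this count has no background. In 20 of the 33 (60.6%) the 3 cultures moved in the same direction, while the share over all genes was 56%. In a fit with no block for the culture, none of the 33 and none of all genes passed. The plot of log2 fold changes shows all 33 by family.

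**Figure D1:**
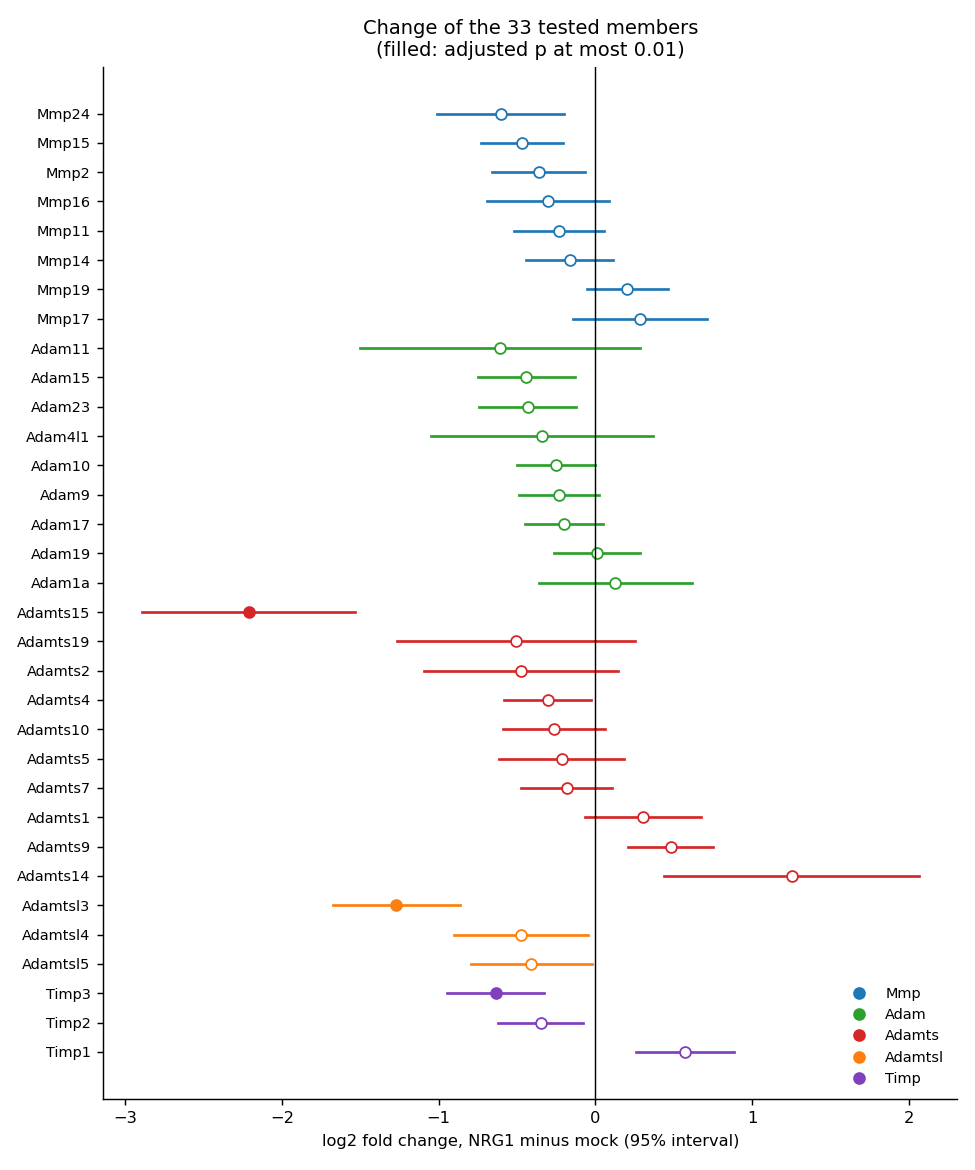
Log2 fold changes of NRG1 minus mock for the 33 tested genes, with 95% intervals of the edgeR fit as bars and families in colours. Filled points mark an adjusted p of at most 0.01. Adamts15, at -2.21, Adamtsl3, at -1.27, and Timp3, at -0.64, are the filled points, and Adamts14 lies farthest to the right at 1.25 with a wide interval.

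Adamts15, a secreted protease that cleaves the proteoglycans aggrecan and versican, fell most. It was counted at 112, 62.2 and 53.2 CPM in mock samples 1, 2 and 3 and 60.5, 6.40 and 7.16 CPM in NRG1 samples 1, 2 and 3. The NRG1 sample lay below its mock partner in all 3 cultures, and the NRG1 value of culture 1 reached into the range of the mock samples. The averages were 75.9 ± 31.7 (SD, n = 3) without and 24.7 ± 31.0 CPM (SD, n = 3) with the ligand. The fit with the culture as a block gave a log2 fold change of -2.21 ± 0.32 (SE, adjusted p = 0.00026), 4.64-fold lower with NRG1. This is a change within cultures and not the ratio of the averages. Within cultures 1, 2 and 3 the log2 ratio was -0.89, -3.24 and -2.86, so that the fall was deep in cultures 2 and 3 and shallow in culture 1. With 1 pair per culture, the difference between cultures in the response was not tested.

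Other ADAMTS proteases that cleave proteoglycans did not pass the threshold. Adamts9, which also acts on aggrecan and versican, had 41.8, 30.2 and 36.3 CPM in mock samples 1, 2 and 3 and 54.6, 43.0 and 52.8 CPM in NRG1 samples 1, 2 and 3. The NRG1 sample was above its mock partner in each culture, and all 3 NRG1 values lay above all 3 mock values. The log2 fold change was 0.48 ± 0.13 (SE, adjusted p = 0.014), just short of the threshold of 0.01. The adjusted p ranged from 0.0081 to 0.34 over the alternative analyses. Adamts1 split by culture, with 342, 27.2 and 43.5 CPM in mock and 275, 44.2 and 67.1 CPM in NRG1 samples. It was lower with NRG1 in culture 1 and higher in cultures 2 and 3, with log2 ratios of -0.31, 0.70 and 0.62 and a log2 fold change of 0.30 ± 0.17 (SE, adjusted p = 0.22). Adamts4 (aggrecanase-1) was at 253, 615 and 517 CPM in mock and 235, 412 and 443 CPM in NRG1 samples. Each NRG1 value was below its partner, and the fitted change was -0.30 ± 0.13 (SE, adjusted p = 0.11). Adamts5 (aggrecanase-2) had a log2 fold change of -0.22 (adjusted p = 0.44).

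The procollagen N-proteinases Adamts2, Adamts3 and Adamts14 trim the amino-terminal propeptide of fibrillar collagens. Adamts14 had 65, 3 and 15 counts in mock samples 1, 2 and 3 and 74, 30 and 84 counts in NRG1 samples 1, 2 and 3, equal to 8.50, 0.444 and 1.18 CPM in mock and 9.67, 3.37 and 5.42 CPM in NRG1 samples. Both samples of culture 1 stood highest, and the NRG1 sample was above the mock sample in each culture, by a log2 ratio of 0.18, 2.47 and 2.02. The log2 fold change was 1.25 ± 0.38 (SE, adjusted p = 0.028), with a 95% interval of 0.44 to 2.06, and the mock samples of cultures 2 and 3, with 3 and 15 counts, were at or not far above the lowest level the depth shows. Adamts2 had 162, 14.0 and 4.25 CPM in mock and 203, 3.59 and 2.32 CPM in NRG1 samples. NRG1 was higher than mock in culture 1 and lower in cultures 2 and 3, and the fitted change of -0.48 ± 0.29 (SE, adjusted p = 0.26) did not pass. Adamts3 was not tested, with 21, 5 and 4 counts in mock samples 1, 2 and 3 and 14, 0 and 2 counts in NRG1 samples 1, 2 and 3. Of the ADAMTS enzymes that cleave the matrix protein COMP, Adamts7 had a log2 fold change of -0.18 (adjusted p = 0.36), and Adamts12 belongs to the genes of culture 1 described further on. Adamts10, known for its link to fibrillin microfibrils, had a log2 fold change of -0.26 (adjusted p = 0.23) and Adamts19 one of -0.51 (adjusted p = 0.33).

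Among the ADAMTS-like proteins, Adamtsl3, a matrix protein without protease domain, fell with NRG1. Its level was 16.3, 36.1 and 12.1 CPM in mock samples 1, 2 and 3 and 7.45, 11.0 and 6.39 CPM in NRG1 samples 1, 2 and 3. Mock sample 2 was highest by a wide margin, and the mock and NRG1 ranges did not overlap, the lowest mock sample being 12.1 and the highest NRG1 sample 11.0 CPM. The log2 fold change was -1.27 ± 0.19 (SE, adjusted p = 0.00034), 2.41-fold lower with NRG1, and the 3 log2 ratios were -1.11, -1.69 and -0.90. Adamtsl4, which binds fibrillin-1, had 100.1, 23.8 and 14.9 CPM in mock and 108, 9.77 and 10.4 CPM in NRG1 samples. Culture 1 was several times above the others in both conditions. NRG1 was lower than mock in cultures 2 and 3 and slightly higher in culture 1, giving -0.47 ± 0.20 (SE, adjusted p = 0.1). Adamtsl5 showed the same split, with log2 ratios of 0.21, -0.86 and -0.48 and a fitted change of -0.41 ± 0.18 (SE, adjusted p = 0.12).

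Among the inhibitors, Timp3 was called lower and Timp1 came just short of a call in the other direction. Timp3, which stays bound to the matrix and blocks Adam17 and aggrecanases as well as Mmp enzymes, was counted at 709, 1984 and 1172 CPM in mock samples 1, 2 and 3 and 473, 1001 and 931 CPM in NRG1 samples 1, 2 and 3. NRG1 was lower in each culture, and the ranges of the groups overlapped, with culture 1 lowest in each. The log2 fold change was -0.64 ± 0.14 (SE, adjusted p = 0.0061), 1.55-fold lower with NRG1. Without replicate 2 the change of Timp3 was -0.46 with an adjusted p of 0.03, and without replicate 3 it was -0.77 with an adjusted p of 0.016, and neither passed. The range over all alternatives was 0.00016 to 0.57.

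Timp1, a secreted inhibitor that also binds the proform of Mmp9, was at 306, 235 and 307 CPM in mock samples 1, 2 and 3 and 364, 477 and 420.0 CPM in NRG1 samples 1, 2 and 3. All NRG1 samples lay above all mock samples. The averages were 283 ± 41.2 (SD, n = 3) without and 420.5 ± 56.4 CPM (SD, n = 3) with the ligand, a log2 fold change of 0.57 ± 0.15 (SE, adjusted p = 0.012) that stayed just over the threshold. The log2 ratios of 0.25, 1.02 and 0.45 were again smallest in culture 1. The adjusted p ran from 0.00079 to 0.27 over the alternatives, and 4 of 9 alternatives called it. Timp2, which blocks Mmp enzymes and also helps Mmp14 to activate the proform of Mmp2, had 886, 667 and 683 CPM in mock and 788, 469 and 528 CPM in NRG1 samples. Each NRG1 sample was below its partner, the ranges overlapped, and the change of -0.35 ± 0.13 (SE, adjusted p = 0.06) did not pass. Timp4 had 1 count in all. On GRCr8 the spans of Timp1, Timp3 and Timp4 overlap those of Syn1, Syn3 and Syn2, that of Timp2 overlaps Cep295nl and that of Adamtsl3 overlaps Saxo2. The strand setting of the counting is not stated, so reads from exons shared by such pairs cannot be told apart.

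**Figure D2:**
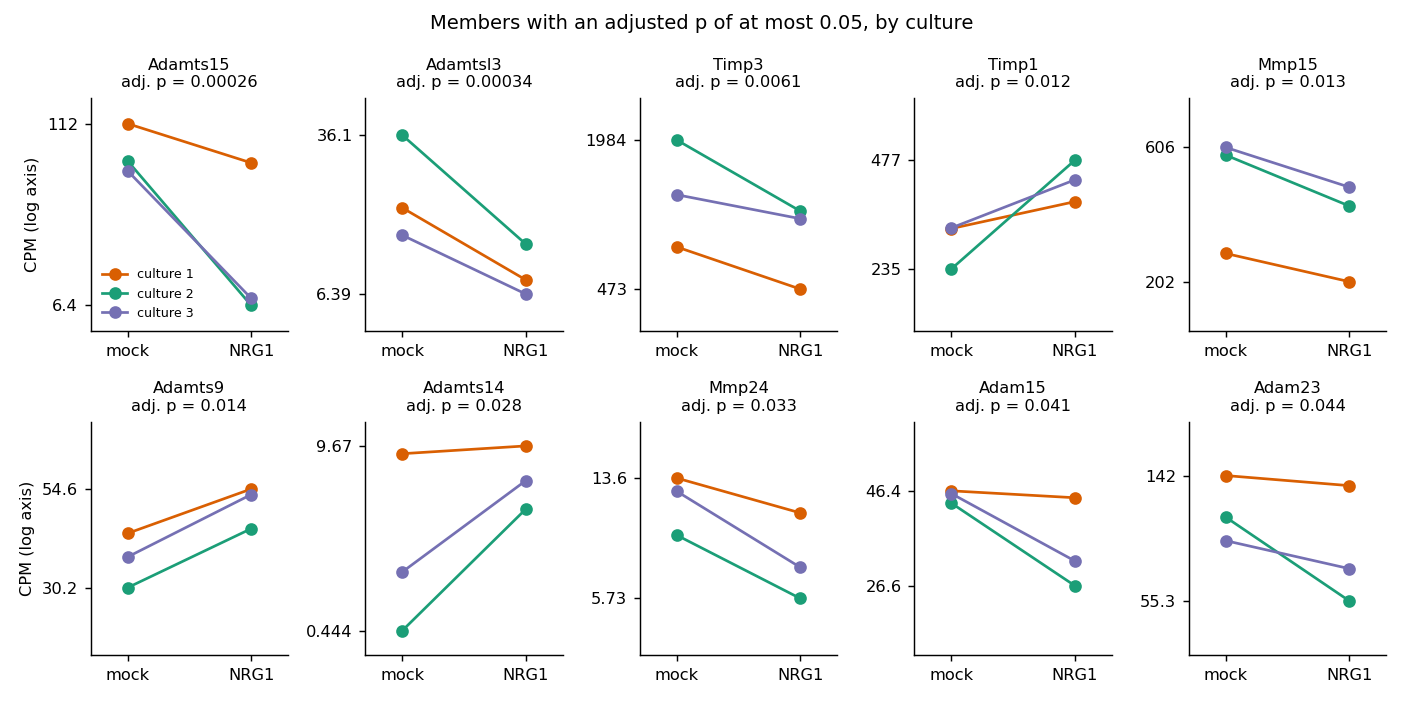
Levels in CPM, on log axes, of the 10 genes with an adjusted p of at most 0.05, each line joining the mock and the NRG1 sample of a culture. Axis ticks give the lowest and the highest value of each gene. Adamts15 drops from 62.2 to 6.40 CPM in culture 2 and from 112 to 60.5 CPM in culture 1, and Timp1, Adamts9 and Adamts14 run upward in all 3 cultures.

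Of the 8 Mmp genes tested, none passed an adjusted p of 0.01. All except Mmp14, 7 of the 8, each kept a single direction in all cultures, upward for Mmp17 and Mmp19 and downward for the others. The share of all genes that did so was 56%. Mmp15, a membrane-type enzyme (MT2-MMP), was at 254, 569 and 606 CPM in mock samples 1, 2 and 3 and 202, 375 and 438 CPM in NRG1 samples 1, 2 and 3. NRG1 was lower in each pair, and culture 1 held the lowest value of either group. The log2 fold change was -0.47 ± 0.12 (SE, adjusted p = 0.013), and 3 of 9 alternatives called it, with adjusted p from 0.0039 to 0.68. Mmp24 (MT5-MMP) had 13.6, 9.02 and 12.4 CPM in mock and 10.6, 5.73 and 7.16 CPM in NRG1 samples and a log2 fold change of -0.61 ± 0.19 (SE, adjusted p = 0.033). Every NRG1 value lay below its mock partner, with overlapping ranges. Its position overlaps that of the antisense gene Mmp24os, and without information on strand the reads of the pair cannot be told apart.

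Mmp2 (gelatinase A), which degrades basement membrane collagen, was counted at 2131, 998 and 686 CPM in mock samples 1, 2 and 3 and 2033, 662 and 511 CPM in NRG1 samples 1, 2 and 3. Culture 1 was far above the others in both conditions, and each NRG1 sample was below its partner. The change of -0.36 ± 0.14 (SE, adjusted p = 0.074), with a 95% interval of -0.66 to -0.06, did not pass. Mmp14 (MT1-MMP), the activator of Mmp2, had 742, 549 and 584 CPM in mock and 749, 412 and 547 CPM in NRG1 samples. Mock and NRG1 ranges overlapped, and the log2 fold change was -0.17 ± 0.13 (SE, adjusted p = 0.39) with an interval of -0.44 to 0.11. The other tested members, Mmp11, Mmp16, Mmp17 and Mmp19, had log2 fold changes of -0.23 (adjusted p = 0.24), -0.30 (adjusted p = 0.25), 0.28 (adjusted p = 0.33) and 0.20 (adjusted p = 0.25). Mmp17 and Mmp19 were the only 2 of the 8 with a value above 0, and both were higher with NRG1 in each culture without passing.

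None of the 9 tested Adam genes passed either. The sheddases that release NRG1 from its precursors are given with their intervals. Adam10 had 202, 229 and 234 CPM in mock and 168, 180.1 and 212 CPM in NRG1 samples, with NRG1 below mock in each pair and a log2 fold change of -0.25 ± 0.12 (SE, adjusted p = 0.14), the interval being -0.50 to 0.00. Adam17 (TACE) had 167, 296 and 275 CPM in mock and 143, 256 and 246 CPM in NRG1 samples, and its change of -0.20 ± 0.12 (SE, adjusted p = 0.23) had a 95% interval of -0.45 to 0.05. Adam19 (meltrin beta) was at 1070.2, 238 and 198 CPM in mock and 1061, 211 and 229 CPM in NRG1 samples. It differed far more between cultures than between conditions, and its log2 fold change of 0.01 ± 0.13 (SE, adjusted p = 0.97) had an interval of -0.26 to 0.28. The values of Adam19 in culture 1 were above those of all other samples.

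Adam15 and Adam23 came nearest to the threshold. Adam15 (metargidin), which binds integrins, was at 46.4, 43.2 and 45.7 CPM in mock and 44.6, 26.6 and 30.8 CPM in NRG1 samples, with nearly equal mock values and lower NRG1 values in cultures 2 and 3. Its log2 fold change was -0.44 ± 0.15 (SE, adjusted p = 0.041). Adam23, which lacks protease activity and binds the LGI proteins, was at 142, 104 and 86.9 CPM in mock and 131, 55.3 and 70.4 CPM in NRG1 samples. NRG1 was lower in each culture and least so in culture 1, and the change was -0.43 ± 0.14 (SE, adjusted p = 0.044). The range of the adjusted p over the alternatives was 0.012 to 0.48 for Adam15 and 0.0083 to 0.74 for Adam23. Adam9 had a change of -0.23 (adjusted p = 0.18), and Adam1a, Adam11 and Adam4l1, all below 8 CPM, had 0.13 (adjusted p = 0.73), -0.61 (adjusted p = 0.32) and -0.34 (adjusted p = 0.49).

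More of these genes were called between cultures than between conditions. In the same fit, a test of the 3 cultures against each other called 18 of the 33 genes (54.5%) at an adjusted p of at most 0.01, against 23.4% of all genes tested. Of these 18, 11 were higher and 7 lower in culture 1 than on average in cultures 2 and 3. The difference of culture 1 from the mean of cultures 2 and 3 was larger in size than the NRG1 change in 20 of the 33 (60.6%), and in 60.3% of all genes, so this share was that of the background. The median size of the culture 1 difference was 0.66 on the log2 scale for the 33 and 0.33 over all genes.

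Higher in culture 1 were Adamts2 by 5.19 on the log2 scale (adjusted p = 4.9e-09), Adamtsl4 by 2.89 (7.0e-08), Adamts1 by 2.82 (2.4e-08), Adamts10 by 2.47 (2.5e-08), Adam19 by 2.29 (1.0e-08), Mmp11 by 1.86 (1.2e-07) and Mmp2 by 1.58 (1.3e-06). The adjusted p in brackets is from edgeR's joint test of the 3 cultures against each other. It covers any difference among the cultures, and the printed difference of culture 1 from the mean of cultures 2 and 3 was not itself tested. Adamts14, Adamts15, Adam23 and Adam9 completed the 11. The differences average mock and NRG1 samples, so a change with NRG1 that varies between cultures enters them. In cultures 1, 2 and 3, Adamts15 had 112, 62.2 and 53.2 CPM in mock and 60.5, 6.40 and 7.16 CPM in NRG1 samples. Lower in culture 1 were Mmp15, at -1.11, Timp3, at -1.07, Adamts4, at -1.01, Mmp19, at -0.82, Adam17, at -0.79, and Adamts19, at -1.62. Adamtsl3, the last of the 7, was highest in culture 2 rather than lowest in culture 1. Timp1 did not pass the test between cultures (adjusted p = 0.92). The fibroblast markers other than Fbln1 were higher and Sox10, Erbb3 and Ngfr lower in culture 1, as given above, and the part of cell makeup in these differences was not tested.

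**Figure D3:**
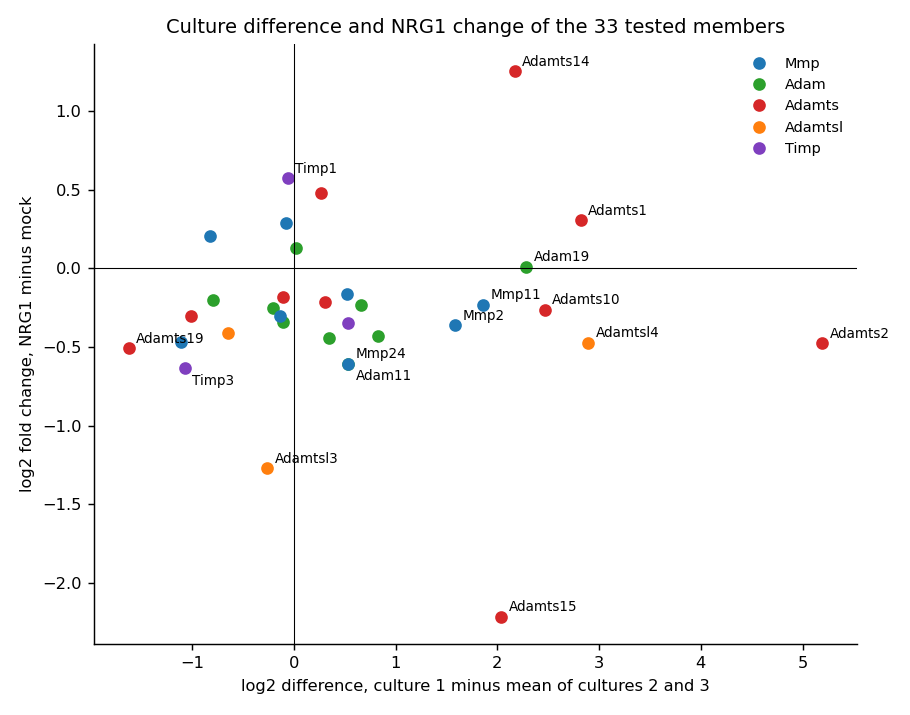
Each of the 33 tested genes by the log2 difference of culture 1 from the mean of cultures 2 and 3 (horizontal) and by the log2 fold change of NRG1 (vertical), coloured by family. The culture difference averages mock and NRG1 samples. Adamts2 lies 5.19 to the right with an NRG1 change of -0.48, Adamts15 combines a culture difference of 2.04 with the deepest fall, and Adamtsl3 lies near 0 on the horizontal axis.

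Stromelysin-1 (Mmp3), stromelysin-2 (Mmp10), collagenase-3 (Mmp13) and Adamts12 had counts in culture 1 and next to none elsewhere. Mmp3 had 950, 0 and 0 counts in mock samples 1, 2 and 3 and 797, 0 and 1 counts in NRG1 samples 1, 2 and 3. Mmp10 had 161, 0 and 0 counts in mock samples 1, 2 and 3 and 141, 0 and 0 counts in NRG1 samples 1, 2 and 3. Mmp13 had 418, 0 and 0 counts in mock samples 1, 2 and 3 and 374, 0 and 0 counts in NRG1 samples 1, 2 and 3. For Adamts12 the files gave 3001, 0 and 0 counts in mock samples 1, 2 and 3 and 2518, 1 and 1 counts in NRG1 samples 1, 2 and 3. The pattern followed the culture and not the treatment, since both samples of culture 1 carried these transcripts. Summed over samples, Mmp13 was at least 757-fold and Mmp10 at least 289-fold higher in culture 1 than the level of 3 counts over all 4 samples of cultures 2 and 3. Adamts12 was 7912-fold higher (95% exact binomial interval of the ratio of counts 2189 to 65346) and Mmp3 5009-fold higher (898 to 197947). These intervals treat reads as independent and cover counting error only, not the variation from culture to culture. Within culture 1, the NRG1 sample was below the mock sample by a log2 ratio of -0.25 for Mmp3, -0.19 for Mmp10, -0.16 for Mmp13 and -0.25 for Adamts12, values from a single pair with no replicate. Mmp3 and Mmp10 are closely related in sequence, and reads that fit both may not have been counted for either. The fibroblast marker Thy1 had the same pattern, with 1241, 0 and 0 CPM in mock and 1121, 0 and 0 CPM in NRG1 samples, as did Dcn, with 598, 0 and 0 CPM in mock and 419, 0 and 0 CPM in NRG1 samples. The macrophage gene Cd14 was also highest in culture 1, at 58 and 40 counts, while Ptprc, C1qa, C1qb, Pecam1 and Cdh5 were at 0 there too. The part of other cell types in this pattern was not tested.

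**Figure D4:**
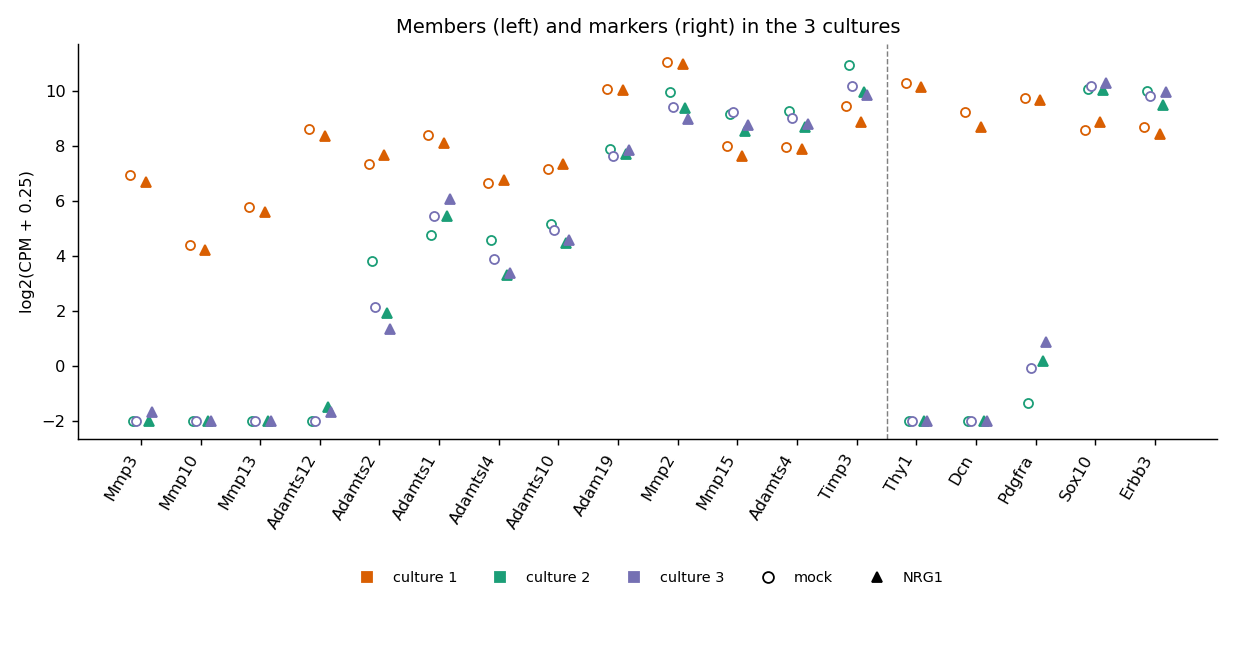
Levels as log2(CPM + 0.25) of 13 genes of the families (left of the dashed line) and of 5 markers (right), for mock (open circles) and NRG1 (triangles) samples in the colours of the 3 cultures. Mmp3, Mmp10, Mmp13 and Adamts12 lie on the floor of the axis or within 1 count of it in cultures 2 and 3, as do the fibroblast genes Thy1 and Dcn, while the Schwann genes Sox10 and Erbb3 are lower in culture 1.

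The promoters of these genes are shown because they appeared together in the same culture. RefSeq gives 42 of the 61 genes a promoter sequence by symbol on the GRCr8 assembly, from 250 bases before to 50 bases after the annotated start. Mmp3, Mmp10 and Mmp13 lie on chromosome 8 in a row of 10 Mmp genes, 9 of which are among the 61. In the sequences that follow, capitals mark matches to the AP-1 motif TGANTCA and to the TATA box TATAAA on either strand, and in Mmp10 a pair of TATA matches on opposite strands overlap.
Mmp3, chr8:12925031-12925330, plus strand: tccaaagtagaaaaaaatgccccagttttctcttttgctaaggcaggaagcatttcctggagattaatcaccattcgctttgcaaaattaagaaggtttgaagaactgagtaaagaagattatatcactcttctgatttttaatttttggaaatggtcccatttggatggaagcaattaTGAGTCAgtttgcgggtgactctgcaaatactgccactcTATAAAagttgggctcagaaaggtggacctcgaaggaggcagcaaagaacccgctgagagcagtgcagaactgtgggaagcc
Mmp10, chr8:12974457-12974756, plus strand: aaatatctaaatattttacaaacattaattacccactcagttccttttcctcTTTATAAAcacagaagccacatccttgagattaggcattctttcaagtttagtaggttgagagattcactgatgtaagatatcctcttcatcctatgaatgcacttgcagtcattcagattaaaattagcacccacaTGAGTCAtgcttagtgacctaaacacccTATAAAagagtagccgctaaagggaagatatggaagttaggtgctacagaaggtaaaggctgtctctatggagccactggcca
Mmp13, chr8:12782579-12782878, plus strand: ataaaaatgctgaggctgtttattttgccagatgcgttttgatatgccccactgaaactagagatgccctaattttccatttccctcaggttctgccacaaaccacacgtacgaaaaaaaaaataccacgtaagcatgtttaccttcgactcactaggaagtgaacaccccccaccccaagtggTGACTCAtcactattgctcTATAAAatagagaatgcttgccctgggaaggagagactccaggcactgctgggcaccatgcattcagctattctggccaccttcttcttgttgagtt
Adamts12, chr2:61759737-61760036, plus strand: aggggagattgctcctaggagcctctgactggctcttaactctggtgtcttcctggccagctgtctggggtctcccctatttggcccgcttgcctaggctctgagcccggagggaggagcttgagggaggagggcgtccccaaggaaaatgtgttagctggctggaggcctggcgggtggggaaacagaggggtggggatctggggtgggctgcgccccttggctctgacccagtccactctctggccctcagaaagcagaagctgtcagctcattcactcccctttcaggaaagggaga
Mmp3 holds TGAGTCA 71 bases before the start, Mmp10 the same letters at 61 bases and Mmp13 TGACTCA at 66 bases, each upstream of a TATAAA. Adamts12 matched neither motif in this window. The AP-1 motif was found in 7.33% of all 33469 promoters, in 8 of the 42 of these families and in 7 of the 9 of the chromosome 8 row. The TATA box was found in 14.2% of all promoters and in 15 of the 42. Most genes of the row with the motif, such as Mmp1, Mmp7, Mmp12 and Mmp20, had 0 or 1 count in culture 1 as well. A match is a description of letters and says nothing about binding.

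The promoters of 2 of the genes lowered by NRG1 are given for comparison. Adamts15, the third, has no entry in the table.
Adamtsl3, chr1:145697754-145698053, plus strand: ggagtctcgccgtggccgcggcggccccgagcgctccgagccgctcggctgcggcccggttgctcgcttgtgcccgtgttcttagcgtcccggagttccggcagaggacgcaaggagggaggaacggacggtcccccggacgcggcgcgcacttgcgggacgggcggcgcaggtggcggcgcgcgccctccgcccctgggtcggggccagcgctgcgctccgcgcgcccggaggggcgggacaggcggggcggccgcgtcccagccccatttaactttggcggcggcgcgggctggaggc
Timp3, chr7:19459509-19459808, minus strand: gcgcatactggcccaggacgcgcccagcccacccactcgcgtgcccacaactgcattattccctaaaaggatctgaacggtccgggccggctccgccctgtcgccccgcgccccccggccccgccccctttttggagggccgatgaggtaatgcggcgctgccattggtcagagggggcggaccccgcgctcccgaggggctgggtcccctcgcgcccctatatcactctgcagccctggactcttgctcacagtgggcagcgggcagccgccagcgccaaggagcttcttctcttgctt
Neither sequence matched the AP-1 motif, the TATA box, the E-box CACGTG, the CRE TGACGTCA, the EGR motif GCGTGGGCG, the FoxO motif GTAAACA or the ETS motif CCGGAAGT on either strand. These motifs were found in 6.42%, 1.83%, 0.544%, 3.78% and 3.81% of all promoters for the E-box, CRE, EGR, FoxO and ETS letters. The windows of Adamtsl3 and Timp3 had a GC content of 78.3% and 68.7%, against 42.0%, 38.3% and 45.3% for Mmp3, Mmp10 and Mmp13 and a median of 51.7% over all promoters. Adamts12, also of culture 1, had 61.3% and lay above that median.

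Since culture 1 stood apart, the comparison was repeated on cultures 2 and 3 alone, which leaves 1 residual degree of freedom per gene and takes the spread almost wholly from all genes together. Of the 61 genes, 34 could then be tested, and 3 were called higher and 6 lower with NRG1, against 5.94% and 6.05% of all genes in these directions. The higher ones were Adamts14 with a log2 fold change of 2.38 (SE 0.43), Timp1 with 0.74 (SE 0.18) and Adamts1 with 0.66 (SE 0.19). The lower ones were Adamts15 with -3.06, Adamts2 with -1.43, Adamtsl3 with -1.33, Adamtsl4 with -0.88, Timp3 with -0.66 and Adam23 with -0.59. The 3 genes called in all cultures were among them, and the other 6 did not pass in the fit to all 3 cultures. The change of Adamts2 went from -0.48 to -1.43 and that of Adamts14 from 1.25 to 2.38 when culture 1 was left out, whereas that of Adamtsl3 and Timp3 hardly moved. Adam10 (-0.24), Adam17 (-0.19), Adam19 (0.03) and Mmp14 (-0.25) were still not called.

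**Figure D5:**
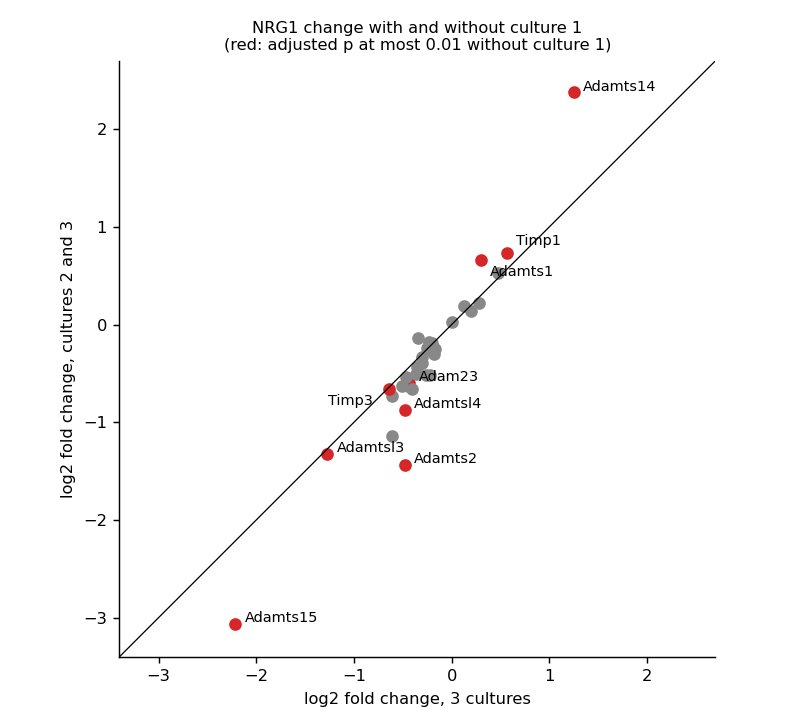
Log2 fold change of NRG1 in all 3 cultures (horizontal) against cultures 2 and 3 alone (vertical), with the line of equality. Red points have an adjusted p of at most 0.01 without culture 1. Adamts14, Adamts1, Adamts2, Adamtsl4 and Adamts15 lie farther from 0 without culture 1, while Adamtsl3 and Timp3 lie on or near the line.

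Genes that act with these proteins were taken from lists by function. They were called at an adjusted p of at most 0.01, at which 6.31% of all genes tested were higher and 5.51% lower with NRG1. Of 15 tested partners and regulators, none was called higher and 1 was called lower, the convertase gene Pcsk5, whose enzyme activates protease proforms. Pcsk5 had 15.4, 43.0 and 26.7 CPM in mock and 9.54, 18.8 and 11.9 CPM in NRG1 samples and a log2 fold change of -1.05 ± 0.16 (SE, adjusted p = 0.00037). Furin, the best known activating convertase, had 0.28 (adjusted p = 0.1), the membrane inhibitor Reck -0.37 (adjusted p = 0.047), and Rhbdf1 and Rhbdf2, the partners that bring Adam17 to the cell surface, 0.33 (adjusted p = 0.069) and 0.25 (adjusted p = 0.18). Of 24 tested genes for membrane proteins cut by ADAM or Mmp enzymes, 2 were called higher and 3 lower. The syndecan gene Sdc1 rose from values of 112.5, 44.7 and 69.5 CPM to 172.5, 238.7 and 249.7 CPM, a change of 1.62 ± 0.24 (SE, adjusted p = 0.00031), and Cd44 by 0.65 ± 0.14 (SE, adjusted p = 0.0045). Epha4 changed by -1.45 ± 0.14 (SE, adjusted p = 1.0e-05), the prion protein gene Prnp by -0.95 ± 0.13 (SE, adjusted p = 0.0002) and the EGF receptor ligand gene Tgfa by -0.79 ± 0.13 (SE, adjusted p = 0.00074). Nrg1 itself, with 1.44, 2.81 and 2.28 CPM in mock and 2.48, 5.73 and 4.64 CPM in NRG1 samples, had 0.97 (adjusted p = 0.021). Of 3 tested other proteases of the metzincin group, none passed, with a median of -0.11. Of 17 tested matrix substrates, only the basement membrane gene Nid2 passed, with -0.67 ± 0.15 (SE, adjusted p = 0.0059), and none was called higher. Among those not called, Tnc had 0.66 (adjusted p = 0.013) and Vcan 0.62 (adjusted p = 0.036). Col3a1 had -0.98 (adjusted p = 0.012) and Col5a2 -0.51 (adjusted p = 0.025). Vcan and Col3a1 split by culture. Within cultures 1, 2 and 3 the log2 ratio was -0.12, 0.95 and 1.14 for Vcan and 0.05, -1.59 and -1.38 for Col3a1. The median log2 fold change was -0.02 for the partners, 0.05 for the membrane substrates and -0.18 for the matrix substrates, beside -0.03 over all genes.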

How the data were processed

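The authors deposited raw counts per sample for 17327 gene symbols, obtained with htseq from reads that TopHat 2.0.10 had aligned to rn5. The htseq version and strand setting are not given in the sources used here. Group and replicate number came from the sample titles. Summary lines of htseq, 50.1% to 53.0% of each file's total, were kept apart.

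In edgeR 4.0.16 (R 4.3.3), genes were filtered with filterByExpr (minimum count 10), libraries scaled by TMM, and a quasi-likelihood model with replicate block and condition fitted to 9740 genes, with Benjamini-Hochberg adjustment over them. The block follows the paired design of the study. Deviations of same-numbered samples from their group means correlated across genes with r of 0.91, 0.67 and 0.81, and those of other pairs with r from -0.80 to 0.51. No libraries were duplicates (chi-square per degree of freedom at least 21.4). Standard errors (SE) were derived from the fitted log2 change and its F statistic, 95% intervals from the t distribution, and log2 ratios of pairs use a prior count of 2. DESeq2 1.42.0 was an alternative. The script was tested on simulated counts.

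Genes named are those with an adjusted p of at most 0.05, all Timp genes, the 3 of each family with the highest mean CPM and genes with a known part in nerve, with up to 5 called genes of each list. Others were named after their values were seen. The families and lists were chosen with earlier results of these data known. Levels were not compared between genes, as no transcript lengths were used. Promoters were matched by symbol, and no protein sequences were analysed here. Some marker genes and an overlap of gene positions are not reported here.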

Additional observations from a re-analysis of the deposited data

How the results depend on the processing

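The counts of members called with NRG1 rested on the replicate block. With no replicate block, 0 were called higher and 0 lower, against 0 and 3 with the block, 0 passed both thresholds, and the adjusted p was 0.51 for Adamts15, 0.28 for Adamtsl3 and 0.57 for Timp3. In that fit no gene of the whole table was called, the smallest adjusted p being 0.14. An unadjusted p under 0.05 was reached by 3 of the 33, but the share over all genes was not computed. DESeq2 with the replicate block called 1 higher and 4 lower, RLE normalization 1 higher and 3 lower, and upper quartile normalization 0 higher and 4 lower. They called 10.5%, 12.6% and 12.7% of all genes in either direction, beside 11.8% in the main fit. The higher gene was Timp1 in DESeq2 and RLE, and the gene gained on the lower side was Mmp15 in DESeq2 and upper quartile. With no filter on low counts 49 members were tested, 3 were called higher and 5 lower, and 1 passed both thresholds upward. In that fit 13% of all genes were called. An adjusted p of 0.05 gave 3 higher and 7 lower, and 1 past both thresholds upward, beside 23.2% of all genes called. Leaving out each replicate in turn gave 0 to 3 higher, 2 to 6 lower, 0 to 1 past both thresholds upward and 2 to 3 downward, the highest values being those without replicate 1. Without replicates 1, 2 and 3 in turn, 34, 39 and 38 members were tested, and 12%, 8.86% and 6.51% of all genes were called in either direction. Shares of all genes past both thresholds were computed for the main fit only. Shares by direction were computed for the main fit and the one without replicate 1. The number called different between cultures was 18 of the 33 tested in the main fit, beside 23.4% of all genes. It was 17 of the 30 tested with at least 10 counts in every sample and 26 of the 49 tested with no filter. The other settings lay between these counts. For all settings but the main fit, these ones included, the shares over all genes were not computed, so their counts have no background. The cause of these shifts was not tested, apart from the number of samples and genes that each setting fixes.

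Adamts15 and Adamtsl3 were called in 8 of 9 alternatives each, all except the one with no replicate block, with log2 fold changes from -3.06 to -1.62 and from -1.43 to -1.02. The sign turned for 5 genes that were not called. Adam19 became -0.0070 with no replicate block, -0.022 with upper quartile normalization and -0.0032 with no filter, and ranged from -0.071 to 0.10 with each replicate left out. With no replicate block Adamts1 became -0.10 and Adamts2 0.21. With each replicate left out, Adamts2 ranged from -1.43 to 0.058, Adamts5 from -0.51 to 0.082 and Adamts7 from -0.30 to 0.012, all with the sign turned without replicate 2. Of the settings named for these 5 genes, only the one without replicate 1 gave calls, for Adamts1 and Adamts2. Depth limits the statements on genes of few counts such as Adamts14, and 3 pairs cannot test whether the cultures respond differently.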

Other observations

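Several genes that are no members but act beside them also differed between the cultures, and they were picked after their values had been seen. Tll1, a protease of the astacin family that trims procollagen, had 243, 14.6 and 4.17 CPM in mock and 185, 5.39 and 2.84 CPM in NRG1 samples. Pcolce, which enhances the trimming of procollagen by such enzymes, was at 663, 68.8 and 59.8 CPM in mock and 642, 49.5 and 32.5 CPM in NRG1 samples. The inhibitor gene Tfpi2 had 34.9, 0.148 and 0.157 CPM in mock and 43.0, 0.225 and 0.194 CPM in NRG1 samples, and the receptor gene Egfr, whose ligands are released by Adam17, had 19.9, 0 and 0 CPM in mock and 25.1, 0 and 0 CPM in NRG1 samples. In each of these, both samples of culture 1 were far above all samples of cultures 2 and 3. Hbegf, the gene of an EGF receptor ligand shed by ADAM proteases, ran the other way, with 77.1, 257 and 232 CPM in mock and 87.4, 260.4 and 265 CPM in NRG1 samples. It was lowest in both samples of culture 1, and its log2 fold change with NRG1 was 0.13 ± 0.12 (SE, adjusted p = 0.47).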
